A study of Mus musculus with 10 samples.

Results

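Histone variants are relatives of the core and linker histones. Most of their genes are transcribed outside the S phase block of the ordinary, replication-dependent histones. The products of such genes can enter chromatin at any time in the cell cycle. Of the 9 genes that define the group examined here (H2afz, H2afv, H2afx, H2afy, H2afy2, H3f3a, H3f3b, H1f0 and H1fx), 5 were among the 6147 genes of the deposited table: H2afx, H2afy, H2afy2, H1f0 and H1fx. They were picked by name, with earlier results of these data known. All 5 passed the filter of a mean of at least 1 TPM (a unit that gives a gene's share of all transcripts, corrected for gene length). H2afz, H2afv, H3f3a and H3f3b were not analysed here. The samples were neocortex of CD1 wild type mice at birth (P0) and at 4 embryonic ages, named E12.5, E14, E15.5 and E17, with 2 libraries per stage and 10 in all; no stage carried an allele, agent or treatment. The series describes the 2 libraries of a stage as biological duplicates, but the labels do not say whether they came from separate litters or from pooled animals, and p-values measure only the spread between these libraries. RNA came from detergent lysate cleared by centrifugation, a mixture of all cells of the tissue, so fewer cells of a type and less RNA per cell cannot be told apart.

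A nucleosome is DNA wound on an octamer of core histones, and a linker histone binds where the DNA enters and leaves it. In dividing cortical progenitors new DNA is packed mainly with replication-dependent histones, whose mRNA ends in a stem-loop instead of a poly(A) tail; cells that leave the cycle, such as neurons, rely on variants to replace histones that are lost. H2A.X, the product of H2afx, is phosphorylated around DNA breaks. MacroH2A1 and macroH2A2, the products of H2afy and H2afy2, carry a large additional macro domain and are known from repressed chromatin such as the inactive X chromosome. H1.0 (H1f0) and H1x (H1fx) are linker histones, and H1.0 is known to build up in many cell types that stop dividing.

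Because the libraries hold polyadenylated RNA, the annotated transcripts were searched for the histone stem-loop, given as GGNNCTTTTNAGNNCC on the sense strand. It was present in 98 of 58797 protein-coding transcripts (0.167%) of GENCODE release M21. Of the 5 variant genes, H2afx alone had a match, 46 bases after its stop codon and 822 bases before the annotated end of its transcript, at chr9:44335240-44335255 on the forward strand of GRCm38. It is shown beside that of Hist1h1c, a replication-dependent linker histone gene whose match lies at chr13:23739512-23739527 on the forward strand, with the 6-base arms of the stem in capitals and the loop in lower case.
H2afx: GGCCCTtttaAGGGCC
Hist1h1c: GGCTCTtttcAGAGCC
A polyadenylated H2afx transcript would run past this element, whereas one that ends near it would carry no poly(A) tail and would not be selected by the kit. The table therefore speaks only of polyadenylated H2afx RNA. The pattern also matched Hist1h1d, Hist1h1e and Hist1h3b, but not Hist1h1a, Hist1h1b and Hist1h4a, so that 3 of the 7 replication-dependent genes in the table lacked it in their annotated transcripts, and its absence from the other 4 variant genes says little. A match is a description of the letters and does not show that the element is used.

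The 5 genes fall into 2 structures. H2afx (ENSMUSG00000049932, chromosome 9 from 44334694 to 44336077, forward strand, coding length 429 bases), H1f0 (ENSMUSG00000096210, chromosome 15 from 79028450 to 79030504, forward strand, 582 bases) and H1fx (ENSMUSG00000044927, chromosome 6 from 87980421 to 87981637, reverse strand, 564 bases) have 1 exon each. H2afy (ENSMUSG00000015937, chromosome 13 from 56073619 to 56136361) and H2afy2 (ENSMUSG00000020086, chromosome 10 from 61738665 to 61784147) lie on the reverse strand, and their coding transcripts have 9 exons and a coding length of 1116 bases. H2afy has 2 coding transcripts, and the table gives 1 value for both. Each of the 5 genes overlaps at least 1 gene on the other strand. Among these are Aifm2, which shares 596 bases with H2afy2, and Gm5577, which shares 755 bases with H1fx. Gm47071 shares 11231 bases with H2afy, introns included. No source used here says whether the counting used the strand, so such reads cannot be told apart.

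From E12.5 to P0 all 5 variant transcripts fell in TPM. The amounts ranged from a small decline of H2afy2 to a loss of most of the polyadenylated H2afx RNA. The sign of the H2afy2 change depended on the scaling: under median-of-ratios scaling it was 0.06 (adjusted p 0.502 in limma). H2afx fell most, H1f0 (-1.90, SE 0.09) and H2afy (-1.86, SE 0.08) fell by amounts that differed by less than their SE, and H1fx and H2afy2 fell least. Tests were made with limma on log2(TPM + 1) over all 10 libraries and all 6048 genes that passed the filter, and genes with a Benjamini-Hochberg adjusted p under 0.05 were called. The count of 5 of 5 called lower stands against 51% of all genes called lower and 27.1% called higher in the same comparison. The count was 4 of 5 under quantile normalization, under median-of-ratios scaling and without either E12.5 library, in each case through the loss of H2afy2. Scaling moved that split: 34.7% of the called genes were higher here, 47.8% under quantile normalization and 50.1% under median-of-ratios scaling. Median-of-ratios scaling moved the median gene from -0.27 to -0.01. Over all genes, 3087 were called lower here, 2419 under quantile normalization and 2282 under median-of-ratios scaling. The median change of the 5 genes was -1.86 on the log2(TPM + 1) scale, against -0.27 over all genes tested. In limma's F test over the 5 stages 4 of the 5 genes were called, against 82.9% of all genes. H2afy2 was the exception, with an adjusted p of 0.0551. With a pseudocount of 10 or with no filter all 5 were called, where 4985 and 4923 of all genes were.

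**Figure D1:**
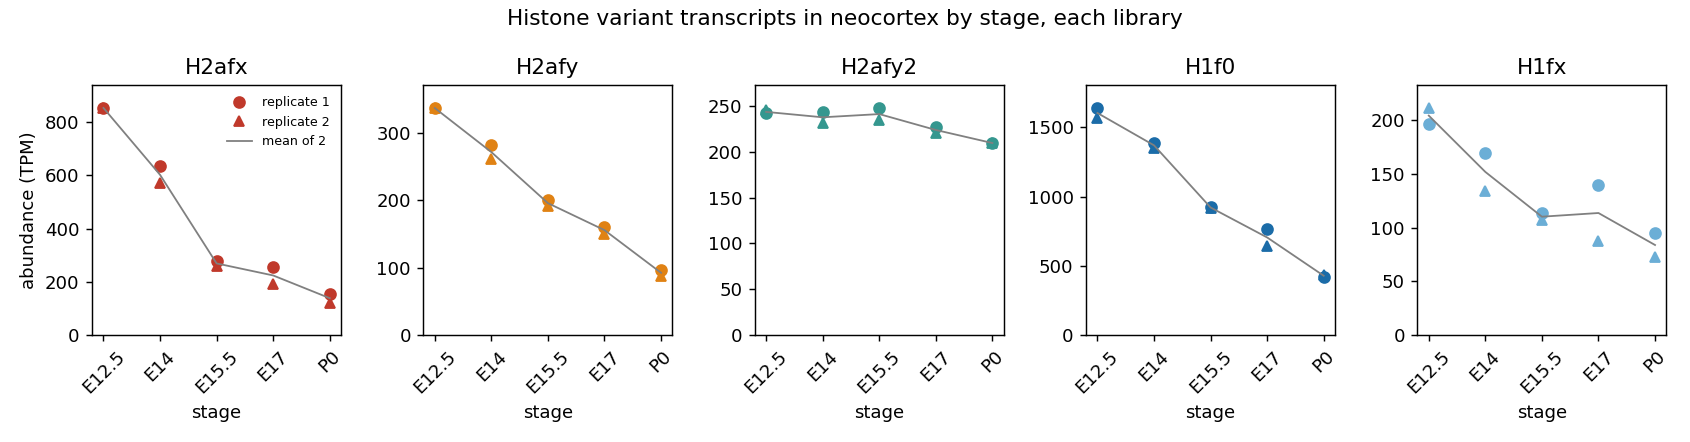
Abundance in TPM (vertical axes, each from 0) of the 5 histone variant genes at each stage; circles and triangles are the 2 libraries of a stage and the line joins their means. H2afx drops from a mean of 854 to one of 139 TPM, while H2afy2 stays between 209 and 248 TPM in the 10 libraries.

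The E12.5 libraries held 855 and 853 TPM of H2afx, which encodes H2A.X, the E14 libraries 634 and 571, the E15.5 libraries 278 and 260, the E17 libraries 255 and 193 and the P0 libraries 156 and 122 TPM. At each step both later libraries lay below both earlier ones. Its mean fell from 854 ± 1.58 TPM (SD, n = 2) to 139 ± 24.0 TPM (SD, n = 2), which left 16.2% of the E12.5 level. The change from E12.5 to P0 was -2.63 on the log2(TPM + 1) scale (SE 0.14, adjusted p 7.73e-09 in limma), and 195 of the 6048 genes tested had a more negative change. H2afx ranked 124 and 123 among the listed genes by abundance at E12.5 and 920 and 1212 at P0.

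The fall of H2afx was uneven. The step from E14 to E15.5 gave -1.16 on the log2 scale (SE 0.14, adjusted p 3.23e-05), 44.1% of the whole change. The last step, to P0, gave -0.69 (adjusted p 0.00266) and the first -0.50 (adjusted p 0.0428), whereas the -0.28 from E15.5 to E17 did not pass (adjusted p 0.159). The call from E12.5 to E14 was lost with no filter (adjusted p 0.0703 in limma) and with no variance trend (0.0597). It was also lost when any 1 of the E12.5, E14 or E15.5 libraries was left out. For the third step, -0.28, leaving out an E17 library gave -0.48 without replicate 1 and -0.08 without replicate 2.

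The E12.5 libraries held 337 and 336 TPM of H2afy, the gene of macroH2A1, the E14 libraries 282 and 261, the E15.5 libraries 199.6 and 191.6, the E17 libraries 161 and 150.5 and the P0 libraries 96.4 and 88.2 TPM. No library of a later stage reached the level of an earlier stage. Its mean was 337 ± 0.83 TPM at the first stage and 92.3 ± 5.84 TPM at the last (SD, n = 2 each), a change of -1.86 (SE 0.08, adjusted p 1.2e-09). H2afy was the only 1 of the 5 genes called at all 4 steps, with -0.31 (adjusted p 0.03), -0.47 (0.000385), -0.33 (0.0113) and -0.75 (4.49e-05) in order of age. The first of these was lost under 8 of 20 alternatives: median-of-ratios scaling (adjusted p 0.0667 in limma), no variance trend (0.0517) and each fit without 1 E12.5, E14 or E15.5 library. The third was lost under 4 of 20: array weights (0.0917), the fit of the 4 libraries of both stages (0.0949) and each fit without 1 E15.5 library (-0.30 and -0.36).

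For H2afy2, the gene of macroH2A2, the E12.5 libraries held 242 and 245 TPM, the E14 libraries 244 and 231, the E15.5 libraries 248 and 234, the E17 libraries 227 and 221 and the P0 libraries 209.2 and 209.9 TPM. The libraries of E12.5, E14 and E15.5 overlapped, and both P0 libraries were below all the others. Its change from E12.5 to P0 was called, at -0.22 (SE 0.07, adjusted p 0.0133), but this was close to the change of -0.27 of the median gene, and 53% of the genes tested had a more negative change. With median-of-ratios scaling the value turned to 0.06 (adjusted p 0.502), and under quantile normalization it was -0.12 (adjusted p 0.131). Leaving out E12.5 replicate 1 or replicate 2 also lost the call (adjusted p 0.0539 and 0.0739). None of its 4 steps was called in limma, and the smallest unadjusted p among them was 0.15.

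The question that a pair of macroH2A genes raises is whether they keep a fixed proportion, and here they did not. At E12.5 H2afy was 1.38 times as abundant as H2afy2, and at P0 it was 0.441 times as abundant, both per unit of length. Within single libraries the TPM ratio of H2afy to H2afy2 was 1.39 and 1.37 in E12.5 tissue, 1.16 and 1.13 in E14, 0.805 and 0.818 in E15.5, 0.709 and 0.681 in E17 and 0.461 and 0.42 in P0 tissue. In TPM the order of the pair was thus turned round between E14 and E15.5, and the ratios of no 2 stages overlapped. The gene lengths behind these TPM are not known here, and other lengths could move the point where the order turns. A fixed length per gene multiplies the ratio by the same factor in each library, so the change over the stages would stay. On the log2 scale the ratio went from 0.47 ± 0.02 (SD, n = 2) at E12.5 to -1.18 ± 0.09 at P0, a difference of -1.64. The exact permutation test on F, run over the 945 possible pairings of the 10 libraries, gave p = 0.00106, the smallest it can give, and 0.00212 after adjustment over the 2 ratios tested. A ratio within a library does not depend on how that library was scaled.

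**Figure D2:**
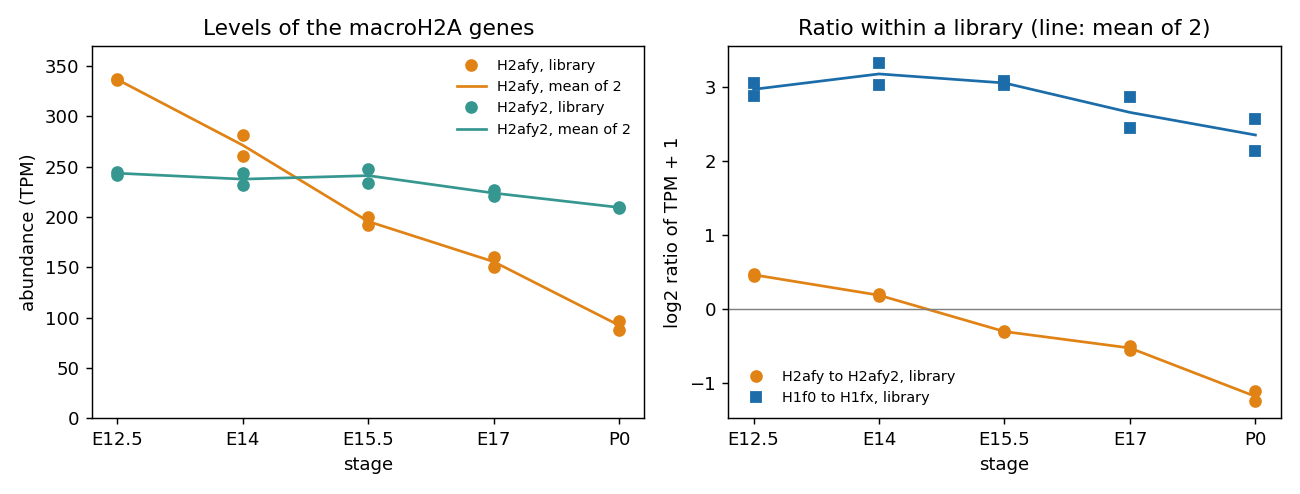
Left, abundance in TPM of H2afy and H2afy2 by stage; right, the log2 ratio of H2afy to H2afy2 and of H1f0 to H1fx within each library, with points for libraries and lines through the means of 2. The macroH2A ratio passes through 0 between E14 and E15.5, where the TPM ratio goes from 1.13 or more to 0.818 or less.

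Of the 5, the transcript of H1f0, which encodes the linker histone H1.0, was the most abundant in each of the 10 libraries. The E12.5 libraries held 1643 and 1566 TPM, the E14 libraries 1390.0 and 1352, the E15.5 libraries 928 and 915, the E17 libraries 764 and 646 and the P0 libraries 421 and 436 TPM. Both libraries of each stage lay below both of the stage before. The mean went from 1604 ± 54.6 TPM to 428 ± 10.1 TPM (SD, n = 2 each), a change of -1.90 on the log2(TPM + 1) scale (SE 0.09, adjusted p 4.05e-09). The steps from E14 to E15.5 (-0.57, adjusted p 0.000326), from E15.5 to E17 (-0.39, 0.0113) and on to P0 (-0.71, 0.000187) were called, and the first step was not (-0.23, adjusted p 0.153). The call from E15.5 to E17 was lost in the fit of the 4 libraries of both stages (adjusted p 0.12 in limma). It was also lost when either E15.5 library was left out (-0.38 without replicate 1 and -0.40 without replicate 2). The value from E12.5 to E14 became called under quantile normalization (adjusted p 0.0214), with array weights (0.00147) and in the 4 libraries of both stages (0.000206). It also became called when either E17 library was left out.

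H1fx, the gene of the linker histone H1x, was the most variable of the 5 between replicates. Its values were 197 and 212 TPM in E12.5 libraries, 169.8 and 134 in E14, 113 and 107 in E15.5, 139.8 and 87.5 in E17 and 94.7 and 73.0 in P0 libraries. The E17 libraries lay on either side of those of E15.5 and differed by a factor of 1.6. From E12.5 to P0 the fall of H1fx was called, at -1.29 (SE 0.19, adjusted p 6.81e-05), with both P0 libraries below both E12.5 libraries. None of its steps was called in the main fit, at -0.43 (adjusted p 0.187), -0.45 (0.0684), 0.01 (0.988) and -0.41 (0.107) in order of age. The first and second steps passed with array weights (adjusted p 4.33e-05 and 1.0e-06 in limma). They also passed in the 4 libraries of both stages (2.95e-08 and 2.27e-05), and the later steps passed in neither setting. Leaving out E17 replicate 2 gave 0.34 for the step from E15.5 to E17 (adjusted p 0.0422) and -0.74 for the step to P0 (0.000167). Leaving out E17 replicate 1 gave -0.33 (0.0753) and -0.07 (0.689) for the same steps. With E17 replicate 1 or replicate 2 left out, the steps from E12.5 to E14 (0.0072 and 0.00719) and from E14 to E15.5 (0.00174 and 0.00173) passed. Without E14 replicate 1 these steps were -0.60 (0.239) and -0.28 (0.37), and without E14 replicate 2 -0.26 (0.66) and -0.62 (0.0595).

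The linker histone pair was compared in the same way. H1f0 exceeded H1fx by a factor of 7.85 in E12.5 tissue, 9.02 in E14, 8.36 in E15.5, 6.2 in E17 and 5.11 in P0 tissue. On the log2 scale the ratio was 2.97 ± 0.12 at E12.5 and 2.35 ± 0.30 at P0 (SD, n = 2 each), a difference of -0.62, which was -0.41 without P0 replicate 1 and -0.83 without P0 replicate 2. The exact permutation test over 945 splits gave p = 0.0772 (0.0772 after adjustment over 2 ratios), so no change of this ratio over the stages was shown; the SD of up to 0.30 within a stage limits what could be seen.

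**Figure D3:**
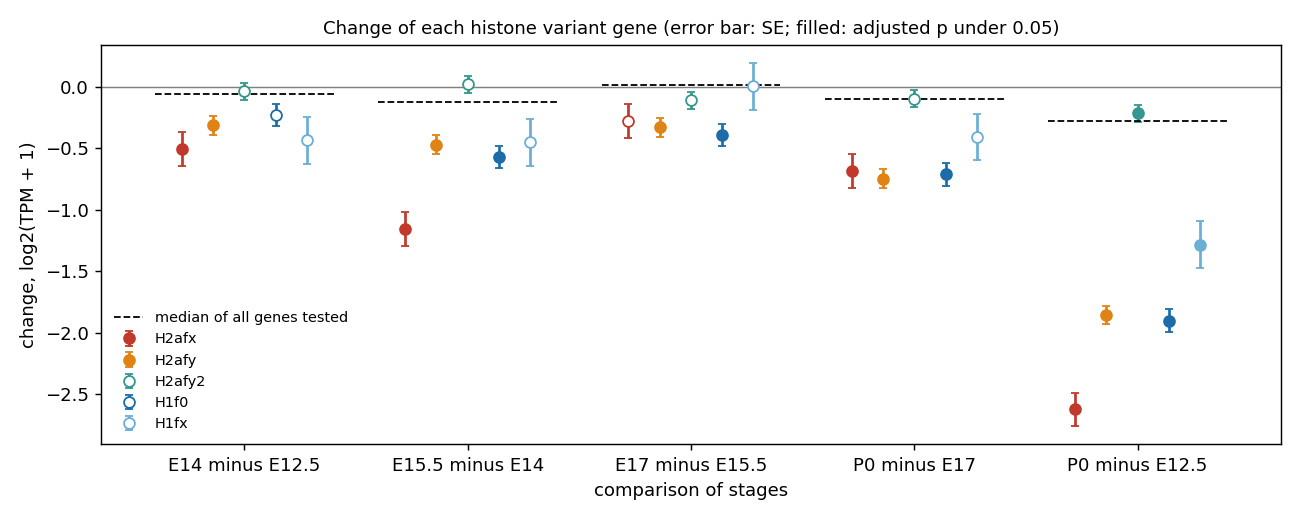
Change on the log2(TPM + 1) scale of each of the 5 genes at the 4 steps and from E12.5 to P0, with SE from limma; filled points have an adjusted p under 0.05 and the dashed line is the median of all genes tested. H2afx has the lowest value from E14 to E15.5 (-1.16), and H2afy2 stays near the dashed line throughout.

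Step by step, 2 of the 5 genes were called lower from E12.5 to E14, where 4.78% of all genes were called lower and 3.95% higher. From E14 to E15.5 the count was 3 of 5, against 33.3% of all genes lower and 18.4% higher. From E15.5 to E17 it was 2 of 5, against 10.6% lower and 14.4% higher, and from E17 to P0 3 of 5, against 28.8% lower and 12.9% higher. No step had a variant gene called higher (0 of 5 at each). The median change of the 5 genes was -0.31, -0.47, -0.28 and -0.69 in order of age, where the median of all genes was -0.06, -0.13, 0.01 and -0.10. H2afx took 44.1% of its whole fall from E14 to E15.5, whereas H2afy took 40.3% and H1f0 37.5% of theirs from E17 to P0; whether these courses differ was not tested.

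Because the genes fell unequally, the make-up of the group changed. The summed level of the 5 was 3243 ± 44.3 TPM in E12.5 tissue (SD, n = 2, as for the values that follow), 2634 ± 120.2 in E14, 1738 ± 42.9 in E15.5, 1422 ± 176 in E17 and 953 ± 34.5 in P0 tissue. H2afx made up 26.3% ± 0.31 of that sum at E12.5 and 14.5% ± 1.99 at P0, and H2afy2 7.51% ± 0.17 and 22.0% ± 0.85 (SD, n = 2 each). H1f0 kept the largest part, with 49.5% ± 1.01 at E12.5, 53.0% ± 0.75 at E15.5 and 45.02% ± 2.7 at P0. By level in TPM the order at E12.5 and E14 was H1f0, H2afx, H2afy, H2afy2 and H1fx, and no neighbours in it overlapped. At E17 H2afx (224 TPM) and H2afy2 (224 TPM) overlapped, and at P0 the order was H1f0, H2afy2, H2afx, H2afy and H1fx, where the last 2 overlapped.

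**Figure D4:**
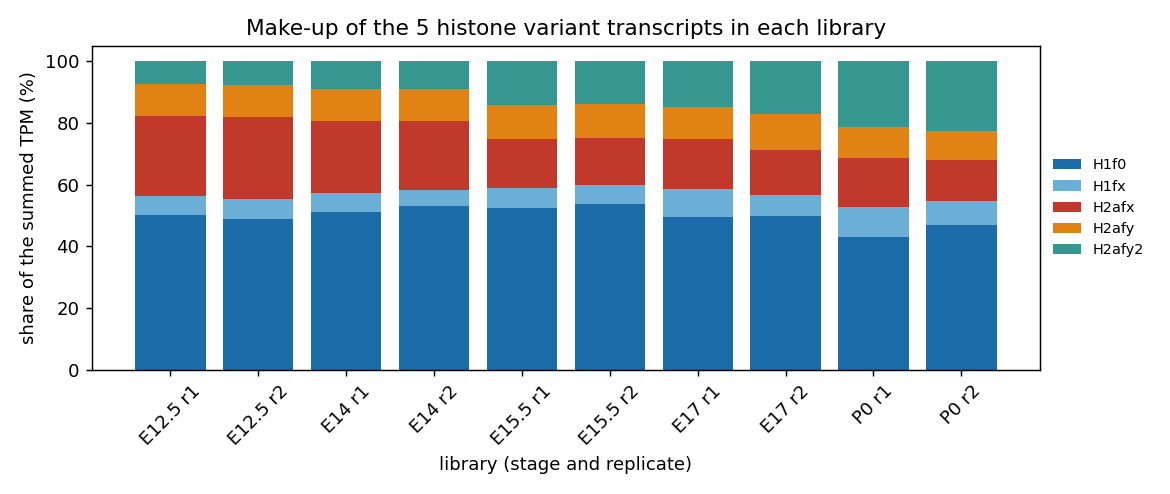
Share in percent of each of the 5 genes in their summed TPM, 1 bar per library (r1 and r2 are the replicates). The part of H2afy2 widens from 7.51% at E12.5 to 22.0% at P0, and that of H2afx narrows from 26.3% to 14.5%.

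The table also held 7 genes of replication-dependent histones. Hist1h1c, a linker histone gene, lay between 22.2 and 25.8 TPM in each library up to E15.5, at 35.9 and 29.7 TPM in those of E17 and at 28.8 and 21.3 TPM in those of P0. Its change from E12.5 to P0 was 0.02 (SE 0.14, adjusted p 0.894), and the last step was called at -0.39 (adjusted p 0.0492). The other 6 (Hist1h1a, Hist1h1b, Hist1h1d, Hist1h1e, Hist1h3b and Hist1h4a) had means of no more than 1.15 TPM at each stage and did not pass the filter. Hist1h1a and Hist1h1b are listed at 0 in both P0 libraries. Histone genes are alike in sequence, and how reads shared by several of them were assigned is not known here, so values of these genes and of H2afx are uncertain to that extent.

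The genes whose course was most like that of each variant were found by Pearson's r on log2(TPM + 1) over the 10 libraries among 5436 other genes whose mean was 10 TPM or more. For H1f0 these were Ccna2 (r 0.998), a cyclin of S phase and mitosis, Aurkb (0.998), a mitotic kinase, and Pax6 (0.998), a transcription factor of radial glia. For H2afy they were Tuba1c (0.996), Ube2c (0.996) and Cdk1 (0.996), of which Cdk1 is the mitotic cyclin-dependent kinase. For H2afx they were Gas1 (0.998), Shisa2 (0.996) and Igf2bp2 (0.996). H1fx was most like Snd1 (0.981), Cog2 (0.98) and Taf5l (0.977), and H2afy2 most like Mepce (0.959), Vps72 (0.952) and Ythdf2 (0.948). The points share their stages, and a general trend with age gives high values: r was above 0.95 for 873 genes with H2afx, 806 with H1f0, 677 with H2afy, 78 with H1fx and 2 with H2afy2. Likeness in r is not likeness in size, since Ccna2 changed by -3.97 and H1f0 by -1.90.

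The sequence before the H1f0 gene is shown because its transcript, the most abundant of the 5, had a course close to those of cell cycle genes. The window is the 250 bases before the RefSeq start in GRCm38.p6, at chr15:79027962-79028211 on the forward strand, and lies wholly outside the GENCODE gene, whose start lies 238 bases after that of RefSeq.
H1f0: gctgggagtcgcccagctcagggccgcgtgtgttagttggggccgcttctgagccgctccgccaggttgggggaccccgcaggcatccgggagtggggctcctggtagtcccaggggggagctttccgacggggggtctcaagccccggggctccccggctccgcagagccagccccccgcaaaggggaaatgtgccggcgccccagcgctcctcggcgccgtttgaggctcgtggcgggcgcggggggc
The window held 74.4% G and C, against a median of 52.4% over 32851 RefSeq windows of this length. Promoters of many cell cycle genes carry the CCAAT box, the CHR element TTTGAA or the E2F elements TTTGGCGC and TTTCCCGC. These were searched on both strands as exact letters, with CCAAT as the letters of the box. None was found in the windows of the 4 members with an entry, H2afy, H2afy2, H1f0 and H1fx, while CCAAT was in 33.8% of all windows, TTTGAA in 16%, TTTGGCGC in 0.417% and TTTCCCGC in 0.895%. RefSeq and GENCODE place the starts of these genes differently: the RefSeq start of H2afy lies 811 bases inside the GENCODE gene and that of H2afy2 283 bases inside, so their windows fall within the GENCODE genes, as does part of the H1fx window. The absence says only that these letters are not in these windows.

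Transcripts of dividing cells and of neurons also changed over these stages. Of 25 proliferation genes 22 were tested, and all 22 were called lower from E12.5 to P0, against 51% of all genes. Their median change was -3.82 (from -4.41 for Bub1b to -1.77 for Mcm7). Their summed level was between 2778 and 2861 TPM at E12.5, between 852 and 885 TPM at E15.5 and between 268 and 280 TPM at P0. All 21 tested synapse and neuronal maturation genes were called higher (27.1% over all genes), with a median of 2.13 (from 0.80 for Homer1 to 4.45 for Camk2b). Measured against the median proliferation gene of the same library, H2afx was higher on the log2 scale by 3.06 ± 0.06 in E12.5 tissue, 3.13 ± 0.06 in E14, 3.19 ± 0.001 in E15.5, 3.67 ± 0.14 in E17 and 4.24 ± 0.34 in P0 tissue (SD, n = 2 each). H2afx thus fell by nearly as much as the median proliferation gene up to E15.5, and less after, while H2afy went from 1.72 at E12.5 to 2.73 at E15.5 and 3.67 at P0, and H2afy2 from 1.26 to 3.03 and 4.84. The part of these changes in the falls of the variants was not tested.

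Markers of other tissue also dropped between E14 and E15.5. The 7 meningeal and choroid plexus genes in the table summed to between 475 and 624 TPM at E12.5, between 1516 and 1623 TPM at E14 and between 6.49 and 7.04 TPM at E15.5. The 3 erythroid genes summed to between 4323 and 4494 TPM at E12.5, between 1880 and 1975 TPM at E14 and between 9.26 and 9.84 TPM at E15.5, with Hbb-bh1 listed at 0 in both P0 libraries. All 10 of these genes were called lower from E12.5 to P0 (51% over all genes), among them Ttr (-6.29), Clic6 (-3.37), Hbb-y (-10.46) and Slc4a1 (-2.20). Of 10 vascular and 10 microglial markers 1 each was in the table. The vascular gene Cdh5 fell over the whole span (-2.86, adjusted p 9.7e-09), and the microglial gene C1qb was at -0.11 (adjusted p 0.437). Of the radial glia markers 8 were tested, with 6 called lower and 2 higher, against 51% and 27.1% of all genes. Their changes ran from -7.19 for Hmga2 to 0.94 for Fabp7. The part of these cells in the step from E14 to E15.5 was not tested.

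The proteins that place and remove variants were then described with lists chosen by function, with earlier results of these data known. Of 7 tested genes that serve H3.3 deposition, 5 were called lower and 1 higher from E12.5 to P0, where 51% of all genes were lower and 27.1% higher. Their median was -0.51, against -0.27 over all genes. Dek, a chromatin protein that binds H3.3, fell most, from 388 ± 32.6 to 96.3 ± 13 TPM (SD, n = 2 each, adjusted p 7.8e-09). Asf1a, a chaperone that hands H3 and H4 to the HIRA complex, fell from 121 to 45.2 TPM (-1.41, adjusted p 4.75e-08), and Ubn1, a subunit of that complex, fell from 36.9 to 15.8 TPM (-1.17, adjusted p 2.8e-05). Hira itself rose from 12.4 to 15.53 TPM (0.30, adjusted p 0.0215), and Atrx, which places H3.3 in heterochromatin together with Daxx, was at -0.21 (adjusted p 0.179).

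Of 10 tested genes for placing and removing H2A.Z, 8 were called lower and 1 higher, with a median of -0.81, where the shares over all genes were 51% and 27.1%. Anp32e, which takes H2A.Z off nucleosomes, was the most abundant of them and fell from 851 to 281 TPM (-1.60, adjusted p 2.74e-08). Actl6a, an actin-like subunit shared by several remodelling complexes, fell most, from 121 to 17.7 TPM (-2.71, adjusted p 2.02e-10). Ruvbl2, an ATPase of some of these complexes, fell by 1.21 (adjusted p 3.9e-08), whereas Actr6 rose by 0.48 (adjusted p 0.00587).

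The chaperones of replication and of general use included 12 tested genes, of which 11 were called lower and 1 higher (51% and 27.1% over all genes), with a median of -1.58. Asf1b, the form of Asf1 tied to cell division, fell from 66.6 to 2.83 TPM (-4.15, adjusted p 1.74e-10), against -1.41 for Asf1a. Mcm2, a helicase subunit that also binds histones, fell from 82.7 to 4.23 TPM (adjusted p 2.76e-10). Chaf1a and Chaf1b, subunits of the assembly factor CAF-1, fell by 2.63 and 1.68, and Hat1, which acetylates new H4, by 2.43. Nasp, a chaperone of H3 and H4 (-1.82), Nap1l1, a chaperone of H2A and H2B (-1.49), and Ssrp1, a subunit of FACT (-1.40), were also called lower. Ipo4, an importin that carries histones, rose by 0.41 (adjusted p 0.00593).

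All 12 tested genes of the H2A.X phosphorylation and response list were called lower at P0 (51% over all genes), with a median of -0.98. Mdc1, which binds phosphorylated H2A.X, fell most, from 29.9 to 7.29 TPM (-1.90, adjusted p 1.88e-07). Trp53bp1, a reader of damaged chromatin, fell least (-0.45, adjusted p 0.00732). The kinases Atm and Atr went from 10.5 to 2.6 TPM and from 7.1 to 3.04 TPM, with changes of -1.69 and -1.01. H2afx, at -2.63, had a more negative value than any of the 12.

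Of 6 tested genes that process replication-dependent histone mRNA, 5 were called lower and 1 higher, against 51% and 27.1% of all genes, with a median of -0.79. Eri1, an exonuclease of the stem-loop, had the lowest change (-1.08, adjusted p 2.46e-07). Lsm11, a subunit of the U7 snRNP that directs the cut after the stem-loop, rose from 30.6 to 94.9 TPM (1.60, adjusted p 3.31e-08). Among 12 tested partners of linker histones and of compact chromatin 11 were called lower (51% over all genes), with a median of -1.30. Hmgb2, an HMG box protein that bends DNA, fell most, from 1104 to 65.4 TPM (-4.06, adjusted p 1.9e-11), and Hmgn1, which competes with linker histones for nucleosomes, fell from 2896 to 891 TPM (-1.70, adjusted p 9.29e-09).

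**Figure D5:**
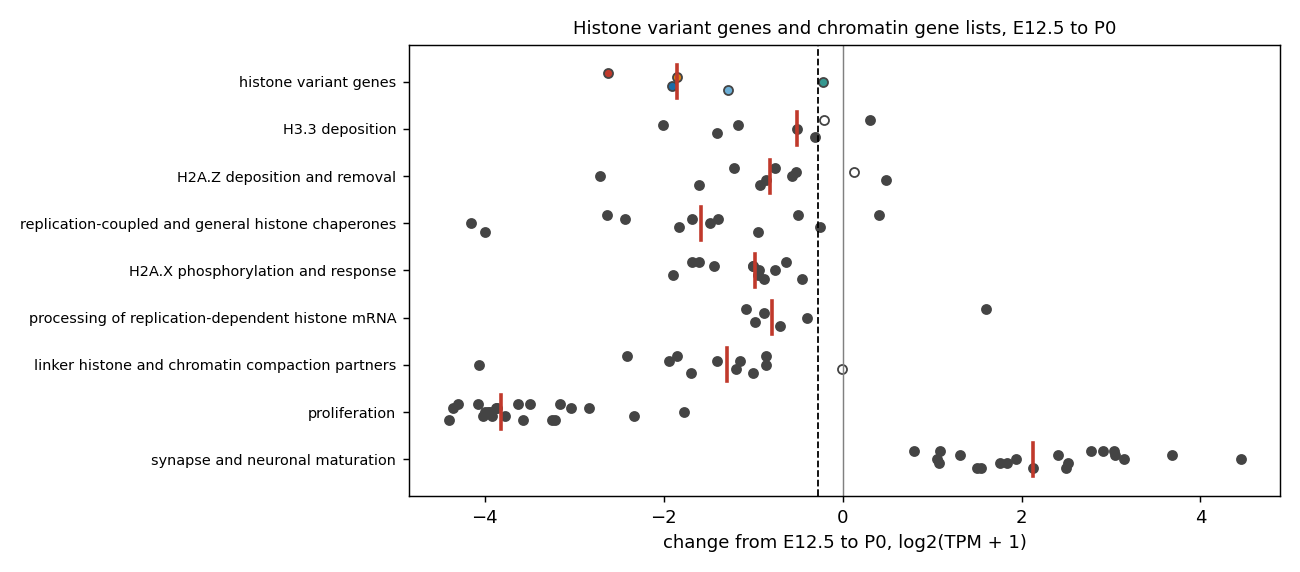
Change from E12.5 to P0 on the log2(TPM + 1) scale (horizontal axis) of the 5 histone variant genes and of the genes of 8 lists; each point is a gene, filled where the adjusted p is under 0.05, red bars are medians and the dashed line is the median of all genes tested. The median of the variants (-1.86) lies between those of the proliferation list (-3.82) and of all genes (-0.27), and Lsm11 stands at 1.60 in a list whose other members are below 0.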

How the data were processed

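RNA from lysed, cleared neocortex was sequenced as stranded, polyadenylated libraries, per the labels' protocols. The authors deposited TPM for 6147 genes in 10 libraries, per the file headers. The submitters' processing notes name STAR, Subread and GRCm38.p5; no source used here gives versions, annotation, gene lengths or how the rows were chosen. Listed genes held from 68.9% to 71.7% of all TPM, and the read depth is unknown. Here, log2(TPM + 1) of 6048 genes (mean TPM of 1 or more) was fitted with limma 3.58.1 in R 4.3.3 (5 stage means, variance trend, Benjamini-Hochberg over all genes). Ratios were tested with an exact permutation test. Scripts were tested on simulated data. Alternatives were pseudocount, filter, scaling, variance trend, array weights, samples in the fit, a replicate block and leaving out each library. Annotation was GENCODE M21 (GRCm38) and RefSeq GRCm38.p6, matched by identifier and symbol. The members and lists were chosen with earlier results of these data known. Genes named were all members, other histone genes in the table, the highest and lowest of each list, list members with a called change of at least 1 (deposition and chaperone lists), and the 3 genes most like each member; Hmgn1, Atm, Atr, Atrx and Hbb-bh1 were added for their function after values were seen. One result that this rule selects is not reported here. Of 4 ratios planned, the 2 whose genes were in the table were tested. Replicate SDs of log2 differences were largest at E17 (0.285) and smallest at E15.5 (0.088).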

Additional observations from a re-analysis of the deposited data

How the results depend on the processing

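The falls of H2afx, H2afy, H1f0 and H1fx from E12.5 to P0 kept their direction and their call in each of 20 alternatives, and so did the change of the H2afy to H2afy2 ratio in its 13. The small change of H2afy2 over that span did not: it was 0.059355 under median-of-ratios scaling. Small step values of H2afy2 and H1fx changed sign without being called. Under quantile normalization H2afy2 was 0.00047308 from E12.5 to E14 and H1fx -0.0079181 from E15.5 to E17. Under median-of-ratios scaling these were 0.020215 and -0.005712, and H2afy2 was 0.016502 from E17 to P0. With single libraries left out, H2afy2 ranged from -0.07278 to 0.0015475 from E12.5 to E14 and from -0.020699 to 0.062628 from E14 to E15.5, and H1fx from -0.32838 to 0.34059 from E15.5 to E17. The number of genes called from E12.5 to E14 (528) became 901 under quantile normalization, 2411 with array weights, 2479 in a fit of the 4 libraries of both stages, and 65 to 1770 with single libraries left out (fewest without E12.5 replicate 1). Between E15.5 and E17 (1514) the number was 758 with array weights, 91 in the 4 libraries, and 466 to 3164 (most without E17 replicate 2). Between E17 and P0 (2525) the same alternatives gave 1145, 1110, and 1640 to 3768 (fewest without P0 replicate 1). Of the 5 variant genes, 2 were called lower from E12.5 to E14, but 1 with no filter or median-of-ratios scaling, 0 with no variance trend, 4 with array weights or in the 4 libraries, and 0 to 4 with single libraries left out; from E15.5 to E17 the 2 became 1 with array weights, 0 in the 4 libraries, and 0 to 3. Over all genes, 289 were called lower from E12.5 to E14, against 1566 with array weights and 1633 in the 4 libraries. With no filter there were 273, with median-of-ratios scaling 304 and with no variance trend 300. From E15.5 to E17 the 643 called lower became 254 with array weights and 20 in the 4 libraries. Under array weights and in the 4 libraries, the variant counts thus rose and fell with those of all genes. The cause was not tested. The H1f0 to H1fx ratio differed by -0.6798 with a pseudocount of 10 (exact permutation p 0.0328). The share of called genes that were higher depended on the setting. From E12.5 to E14 it was 45.3%, but 58.7% under median-of-ratios scaling, 30.8% with a pseudocount of 10, and 37.4% to 86.2% with single libraries left out. From E14 to E15.5 it was 35.6%, and 49% and 50.2% under quantile and median-of-ratios scaling. The split from E15.5 to E17 (871 higher, 643 lower) turned to 915 and 971 under quantile normalization and to 735 and 1056 without E17 replicate 1, and was 66.9% higher without E17 replicate 2. From E17 to P0 the share was 30.9%, with 51.4% and 48.4% under the 2 scalings and 41.5% without E17 replicate 1. Over all genes tested, the deviations of libraries with the same replicate number correlated at r from -0.375 to 0.107 over 10 pairs of stages, 1 above 0.1. H2afx and H2afy were higher in replicate 1 than in replicate 2 at each stage, by 0.35 and 0.13 at P0 on the log2(TPM + 1) scale. H1f0 was higher in replicate 2 at P0, H1fx at E12.5, and H2afy2 at both. What the number stands for is not known here. With the replicate block the called genes from E12.5 to P0 were 4676 against 4728, and all 5 variant genes were still called lower (H2afx -2.63, adjusted p 6.41e-10). The block also called H1fx from E14 to E15.5 (0.0224) and from E17 to P0 (0.0431). TPM carry no read depth, so no counting error can be given.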
